A study of Rattus norvegicus with 10 samples.

Results

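The regions described here are the H3K9me3 peaks of RCS cells that share at least 1 bp with an H3K27ac peak. They number 4722 of the 52431 H3K9me3 peaks in the deposited list (9.01%). They were chosen by their measured overlap with H3K27ac, so their number and the overlap itself are descriptions with no test. RCS cells are a rat chondrosarcoma cell line, used as a model of cartilage cells, and the labels name no treatment, genotype or clone. Chromatin was immunoprecipitated from them and sequenced (ChIP-seq), with 1 library each for H3K9me3, H3K27ac, H3K4me1, H3K4me3, SOX9 and SOX6, which makes 6 peak lists. The other 4 of the 10 samples are input libraries without antibody. There are no replicates, so values are given without an error between libraries and no test between conditions could be made. Intervals in parentheses after a share are 95% Wilson intervals, cover counting error only, and are too narrow as a guide to another library because neighbouring peaks are not independent.

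H3K9me3, methylation of lysine 9 of histone H3, is laid down over heterochromatin, repeats and silenced genes, and is bound by HP1 proteins. H3K27ac, acetylation of lysine 27 of the same histone, is found on active enhancers and promoters. The pair is usually thought of as belonging to opposite states, although a population of cells, both alleles or neighbouring nucleosomes can carry them at the same position, and bulk ChIP-seq does not separate these cases. H3K4me1 is found mainly at enhancers and H3K4me3 mainly at promoters. SOX9 drives chondrocyte differentiation, and SOX6 acts with it in cartilage.

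The H3K9me3 peaks that met H3K27ac are called doubly marked peaks below, and the 4493 H3K27ac peaks that they met (8.84% of 50834) are called hosts. They formed 5004 pairs. Among the upper 50% of both lists by score the shares were lower, 5.47% of H3K9me3 and 5.08% of H3K27ac peaks. Both lists were cut there, so each peak had fewer peaks to meet, and these shares do not show how the rate follows score. Most hosts, 4078, met 1 H3K9me3 peak, 342 met 2 and 73 met 3 or more, up to 7 on 1 host. Of the doubly marked peaks, 238 met more than 1 H3K27ac peak. Together the lists shared 3.67 Mb, which was 8.12% of the length of all H3K9me3 peaks and 4.45% of that of all H3K27ac peaks.

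The overlap was deep and not a matter of touching ends. The median doubly marked peak had 91.7% of its width under H3K27ac (quartiles 61.2% and 100%), with a median of 638 bp in common. In 2440 of them (51.7%) the shared part was 90% of the width or more. At the other end, 109 (2.31%) had less than 10% of their width under H3K27ac. By position, 1642 lay entirely under an H3K27ac peak (34.8%, 33.4% to 36.1%) and 2056 crossed a single edge (43.5%). A further 948 spanned a whole H3K27ac peak with H3K9me3 on both sides of it (20.1%), and 76 bridged the edges of more than 1 H3K27ac peak. The peaks that lay entirely under H3K27ac were narrow, with a median width of 684 bp and a median score of 81.4. Those that spanned an H3K27ac peak had medians of 1329 bp and 479. The score is a number per peak that the authors deposited, from 50.03 to 3230.05 in the H3K9me3 list, on a scale not given in the sources used here, and it is used only within a list.

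Seen from the H3K27ac side, the share under the other mark was wider spread. The median host had 73.3% of its width under H3K9me3, but the quartiles were 32.5% and 99.7%. H3K9me3 covered 90% or more of 1673 hosts (37.2%) and all of 1087 (24.2%), while 845 hosts had between 10% and 30% of their width covered.

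**Figure D1:**
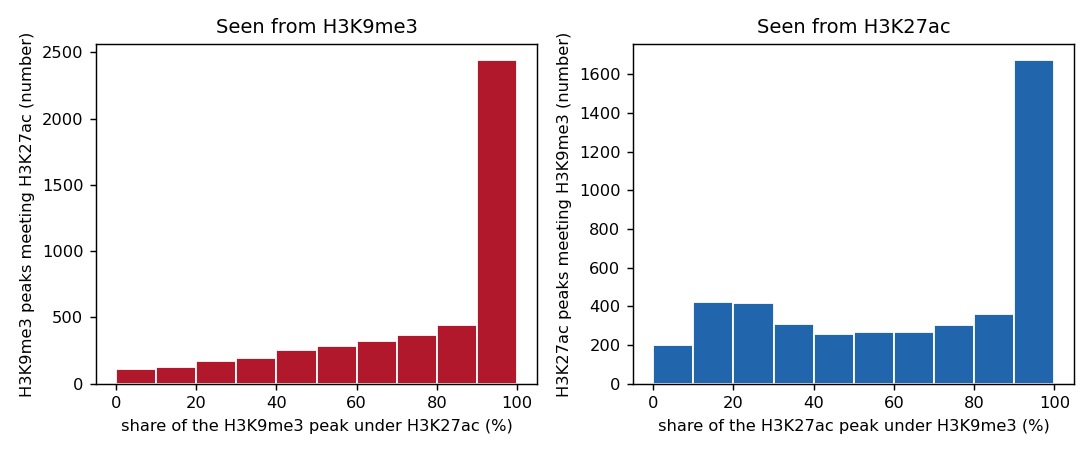
Share of each doubly marked H3K9me3 peak that lay under H3K27ac (left, 4722 peaks) and share of each host H3K27ac peak that lay under H3K9me3 (right, 4493 peaks), in steps of 10 percentage points; bars are numbers of peaks. The last step holds 2440 H3K9me3 and 1673 H3K27ac peaks. In the right panel 845 peaks lie between 10% and 30%.

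In part of the pairs both marks outlined nearly the same interval. In 1964 of the 5004 pairs (39.2%) the shared part made up 50% or more of the joint length, and in 563 (11.3%) both edges lay within 100 bp of each other. The 1964 doubly marked peaks with such a match had a median width of 831.5 bp, and the best-matched hosts a median of 820.5 bp and a host score of 149.675. The other 2758 had a similar width, 808 bp, but lay on hosts with a median width of 2124 bp and a score of 1066. H3K4me1 was present at 56.6% (54.4% to 58.8%) of the closely matched peaks and 71.6% (69.9% to 73.3%) of the others. H3K4me3 was present at 14.0% and 15.6%, with intervals that overlap.

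Read as a share of the width of the H3K27ac peak, the position of H3K9me3 centres differed between narrow and wide peaks. The centre of the H3K9me3 peak fell inside the H3K27ac peak in 3955 pairs. On hosts under 1 kb wide, 45.1% of these centres lay in the middle 20% of the host and 8.18% in its outermost 10% at either end. On hosts of 4 kb or wider the order was turned, with 10.1% in the middle 20% and 34.2% in the outermost 10% at either end. The H3K9me3 peaks were of like width on both, with medians of 730 bp and 840 bp. They therefore filled much more of a narrow host, and the outermost 10% of such a host is a far shorter stretch. Position as a share of width is thus bound up with host width, and a difference apart from it was not tested. On the wide hosts the median centre lay 873 bp from the nearer edge.

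On wide hosts the centres were set a little in from the edge. Of the 602 centres on hosts of 4 kb or wider, 45 (7.48%, 5.63% to 9.86%) lay within 250 bp of an edge, where 8.17% of the host length lies. Within 500 bp the share was 29.2% (25.7% to 33.0%), against 16.3% of the length. A peak that lies entirely inside a host has its centre away from the edge by its own extent, so the first of these shares is limited by the width of the H3K9me3 peaks. Over hosts of all widths, 30.5% (29.1% to 31.97%) of centres lay within 250 bp of an edge, where 27.9% of the host length lies. Within 500 bp the share was 68.7%, against 47.5% of the length. Every centre on a host under 1 kb lies within 500 bp of an edge, and such hosts held 1553 of the 3955 centres. The shares over all widths therefore depend on the mix of host widths. The share within 250 bp was 12.9% among the upper 50% of both lists by score. The part of the host length within 250 bp of an edge was not computed for that subset, so the value cannot be set against length.

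To see the flanks as well, H3K9me3 was read at fixed distances from the edges of every H3K27ac peak, with or without H3K9me3. Around the 2605 H3K27ac peaks of 4 kb or wider, H3K9me3 covered 4.76% of positions 5 kb outside the edge. It covered 2.79% of those 250 bp outside, 4.05% at the edge, 6.91% of those 375 bp inside, 2.88% of those 2 kb inside and 2.07% of centres. The mark was thus lower just outside the edge than farther away, highest a short way inside it and lowest in the middle. In H3K27ac peaks of 2 to 4 kb the values off the centre were lower, with 2.696% at 5 kb outside, 1.91% at 250 bp outside and 3.70% at 250 bp inside. At centres the value was 2.22%, slightly above that of the widest class, so that here the lowest point was just outside the edge. Peaks under 1 kb had no such inner drop, and H3K9me3 covered 3.48% of positions 5 kb outside and 9.06% of centres. H3K4me1, the enhancer mark, rose over the same edges from 13.6% at 5 kb outside to 84.0% at 625 bp inside for the widest class.

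**Figure D2:**
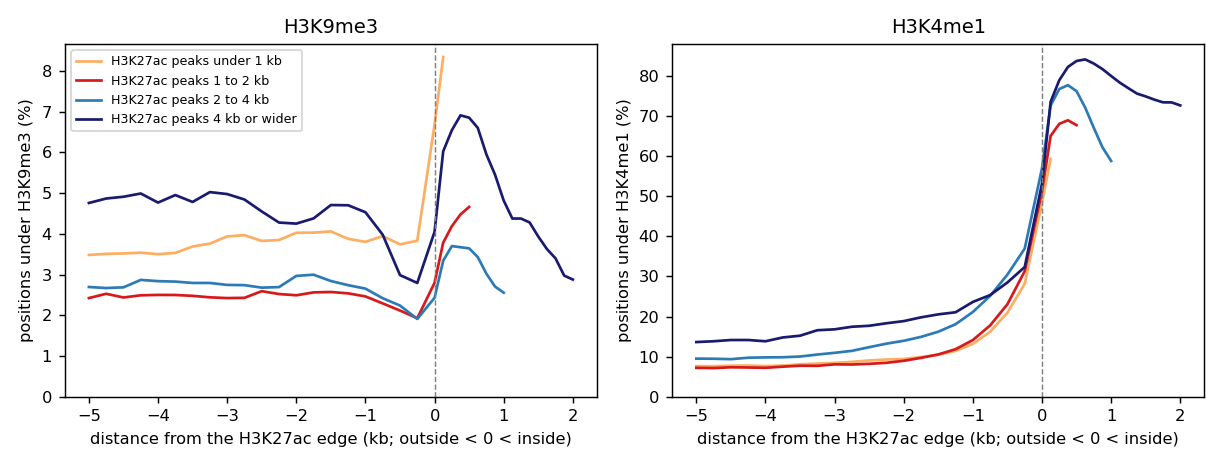
Share of positions under H3K9me3 (left) and H3K4me1 (right) against distance in kb from the edges of all H3K27ac peaks, with negative values outside and positive values inside; lines are 4 classes of H3K27ac width, and positions outside that fell in another H3K27ac peak were left out. In the widest class H3K9me3 dips to 2.79% at 250 bp outside and reaches 6.91% at 375 bp inside.

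Doubly marked peaks were wider than the other H3K9me3 peaks, with a median of 819 bp (quartiles 617 and 1248) against 693 bp (563 and 937). The rate therefore was also read within 5 classes of width. It went from 5.87% (5.44% to 6.34%) of H3K9me3 peaks of 213 to 546 bp to 9.39% (8.84% to 9.96%) of those of 778 to 1061 bp and 14.9% (14.2% to 15.6%) of those above. For H3K27ac peaks the rate did not follow width in this way. It was 10.4% (9.85% to 11.04%) in the narrowest class, 5.74% (5.31% to 6.21%) in peaks of 1509 to 2294 bp and 10.6% (10.02% to 11.2%) in the widest, so narrow H3K27ac peaks met H3K9me3 as often as peaks several times their width.

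Most doubly marked peaks carried H3K4me1 as well. H3K4me1 was present at 3088 of them (65.4%, 64.0% to 66.7%), against 9.44% of all H3K9me3 peaks and 3.897% (3.73% to 4.07%) of those that did not meet H3K27ac. With the latter weighted to the same width classes the share was 4.29%, a difference of 61.1 percentage points (59.7 to 62.5). H3K4me3 was present at 705 (14.9%, 13.9% to 16.0%), against 1.72% of all H3K9me3 peaks and 0.413% of those without H3K27ac. Among the upper 50% of both lists by score it was present at 24.2% of doubly marked peaks. Since H3K27ac peaks in general carry these marks, the difference from H3K9me3 peaks outside them does not speak of double marking. Where H3K4me1 met a doubly marked peak it covered a median of 88.7% of its width, and H3K4me3 a median of 78.2%. By combination, 2623 peaks (55.5%) had H3K4me1 without H3K4me3, 465 (9.85%) had both, 240 (5.08%) had H3K4me3 alone and 1394 (29.5%) had neither.

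Against acetylated chromatin free of H3K9me3, the doubly marked regions were poorer in both H3K4 marks. H3K4me1 was present at 68.9% (67.6% to 70.3%) of hosts, against 80.8% of all H3K27ac peaks and 82.0% (81.6% to 82.3%) of those without H3K9me3. H3K4me3 was present at 21.8% (20.6% to 23.0%) of hosts, against 38.7% of all H3K27ac peaks and 40.4% (39.9% to 40.8%) of those without H3K9me3. With widths weighted alike, the difference was -12.003 percentage points for H3K4me1 (-13.4 to -10.6) and -16.9 points for H3K4me3 (-18.2 to -15.6). For H3K4me1 the gap was largest among narrow H3K27ac peaks. In those of 652 to 963 bp, H3K4me1 was present at 56.0% of hosts and 75.2% of the others, while in the widest class the shares were 96.4% and 97.6%. For H3K4me3 the narrowest class differed little, at 13.0% and 14.3%. In peaks of 1509 to 2294 bp the shares were 22.1% (18.9% to 25.7%) and 57.1% (56.1% to 58.1%).

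**Figure D3:**
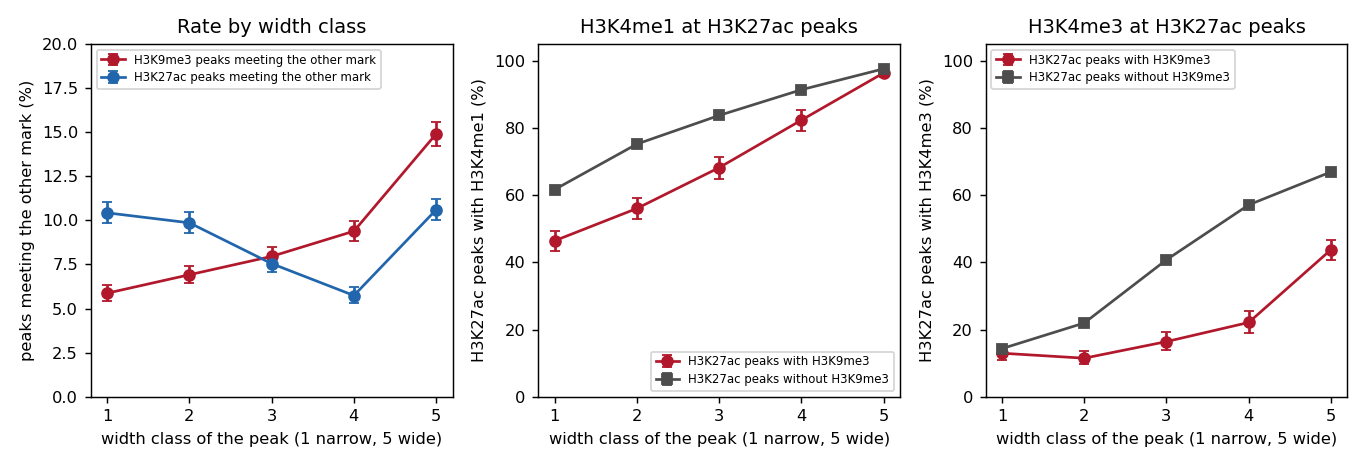
Left, share of H3K9me3 peaks that met H3K27ac and the reverse, in 5 classes of width of the peak counted; middle and right, share of H3K27ac peaks with H3K4me1 and H3K4me3 in the same classes, for peaks with and without H3K9me3; points are shares and bars 95% Wilson intervals. H3K27ac peaks with H3K9me3 lie below the others for H3K4me3 from the second class on, at 22.1% against 57.1% in the fourth.

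Within a host, too, the part under H3K9me3 differed from the rest. Of the 3.67 Mb under both H3K9me3 and H3K27ac, H3K4me3 peaks covered 12.3%, compared with 24.4% of the other 4.33 Mb of the same hosts and 41.1% of H3K27ac peaks without H3K9me3. H3K4me1 covered 57.9%, 74.0% and 67.6%. On hosts of 4 kb or wider, H3K4me3 covered 9.74% of the part under H3K9me3 and 27.5% of the rest. On hosts under 1 kb no such gap was seen, with 11.4% and 8.21% for H3K4me3 and 46.0% and 44.9% for H3K4me1. H3K9me3 there left only 0.243 Mb of the hosts uncovered. The values over all hosts pool hosts of unlike width. In all H3K27ac peaks of 4 kb or wider, H3K4me3 covered 9.65% of positions at the edge and 48.8% of centres. H3K9me3 lay toward the ends of wide hosts, and how far position alone accounts for the H3K4me3 contrast was not tested.

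SOX9 and SOX6 peaks met hosts about as often as other H3K27ac peaks, SOX6 slightly less, but their centres lay mostly outside the stretch under H3K9me3. SOX9 peaks met 21.2% (19.997% to 22.4%) of hosts, against 20.7% of all H3K27ac peaks and 20.6% of those without H3K9me3, a width-weighted difference of 0.425 percentage points (-0.815 to 1.67). SOX6 peaks met 22.1% of hosts, against 24.0% of all H3K27ac peaks, with a width-weighted difference from H3K27ac peaks without H3K9me3 of -2.19 points (-3.45 to -0.922). Of 1152 SOX9 centres inside hosts, 209 lay under H3K9me3 (18.1%, 16.0% to 20.5%), which covered 45.8% of the host length. For SOX6 it was 241 of 1271 (19.0%, 16.9% to 21.2%). These shares pool hosts of unlike width, and H3K9me3 covered more of the narrow hosts, where SOX peaks were few.

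Read by width, the gap in centres was seen on wide hosts and on those under 4 kb. On hosts under 4 kb, 169 of 620 SOX9 centres lay under H3K9me3 (27.3%, 23.9% to 30.9%). For SOX6 it was 194 of 689 (28.2%, 24.9% to 31.6%), and H3K9me3 covered 56.8% of the length of these hosts. Hosts under 4 kb still pool unlike widths. H3K9me3 covered most of the length of those under 1 kb, where SOX peaks were few, so the size of this gap also reflects the mix of widths. On the 439 hosts of 4 kb or wider, 40 of 532 SOX9 centres (7.52%, 5.57% to 10.1%) and 47 of 582 SOX6 centres (8.08%, 6.13% to 10.6%) lay under H3K9me3, which covered 24.1% of their length. By length, SOX9 peaks took up 8.08% of the part under H3K9me3 in the wide hosts and 25.5% of the rest. The latter is more than the 16.2% that they took up in H3K27ac peaks of this width without H3K9me3. SOX6 peaks took up 6.43%, 22.0% and 14.9%. On hosts of 2 to 4 kb SOX9 peaks took up 8.05% of the part under H3K9me3 and 19.7% of the rest, and on those of 1 to 2 kb 5.03% and 8.06%. On hosts under 1 kb the SOX9 values were close, at 1.73% and 1.94%, and those of SOX6 were 1.27% and 2.89%. H3K9me3 lay toward the ends of wide hosts, and how far position alone accounts for these shares was not tested. In all, 357 doubly marked peaks met a SOX9 peak (7.56%, against 0.950% of all H3K9me3 peaks) and 368 a SOX6 peak (7.79%, against 1.09%).

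**Figure D4:**
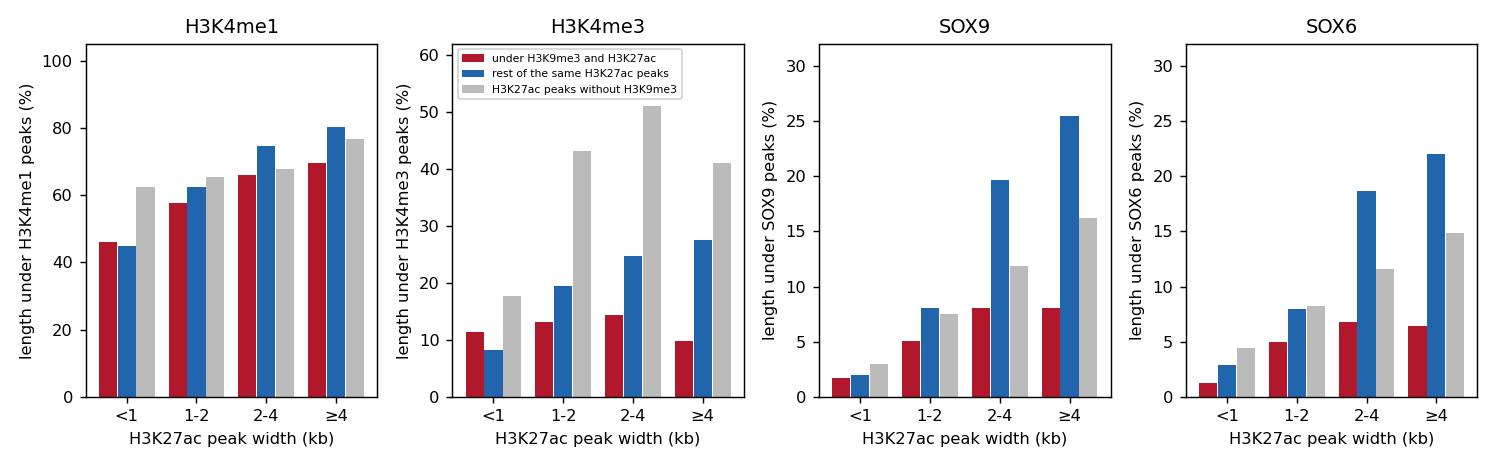
Share of length under H3K4me1, H3K4me3, SOX9 and SOX6 peaks, in 4 classes of H3K27ac width, for the stretches under both H3K9me3 and H3K27ac, the rest of the same H3K27ac peaks, and H3K27ac peaks without H3K9me3; bars are lengths pooled over all peaks of a class. In the widest class SOX9 takes up 8.08%, 25.5% and 16.2%.

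The scores of doubly marked peaks were shifted upward in the H3K9me3 list, with a small group at the top. Their median score was 115.815 (quartiles 69.5 and 268), against 86.1 (62.9 and 148) for the other H3K9me3 peaks. The share of H3K9me3 peaks that met H3K27ac was 7.04% (6.56% to 7.55%) for scores from 50 to below 60 and 11.8% from 200 to below 400. It was 34.8% (31.4% to 38.5%) from 1000 to below 3100, and 182 of the 251 peaks at 3100 or above met H3K27ac (72.5%, 66.7% to 77.7%). Score and width go together, so the rate was also read by score within width classes. In the widest class it was 11.1% (10.3% to 11.96%) at or below the class's median score and 18.7% (17.7% to 19.8%) above it. That class runs from 1062 to 15000 bp, so width was not held alike within it. In the 4 narrower classes the upper and lower scores differed by less than 2 percentage points and in no 1 direction, with 6.20% above and 5.55% at or below the median in the narrowest class, and 6.29% and 7.55% in the next.

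The peaks at the top of the score were unlike the rest. Of the 182, 162 spanned a whole H3K27ac peak (89.0%), compared with 17.3% of the other doubly marked peaks. Their median width was 2268.5 bp, and the hosts under them had a median width of 897 bp and a median score of only 194.5 in the H3K27ac list. H3K4me1 was present at 159 of them (87.4%) and H3K4me3 at 95 (52.2%, 45.0% to 59.3%). They lay in 77 bins of 1 Mb, and 120 of them (65.9%) lay in their own 20 fullest bins. So short a list gathers easily in few bins, and no list of like length was set beside it. On the H3K27ac side, H3K9me3 covered 7.91% of the length of peaks in the lowest of 5 classes of score and 2.89% in the highest. The share of H3K27ac peaks that met H3K9me3 differed less, at 9.54% (8.98% to 10.1%) in the lowest class and 8.26% (7.74% to 8.81%) in the highest. Between them it ranged from 10.7% to 6.95%.

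The 3 doubly marked peaks with the highest scores each spanned a whole H3K27ac peak. The first, on chromosome 14 from 94159972 to 94162277 (rn5), had a score of 3227 and covered an H3K27ac peak of 676 bp with a score of 85.1. The next, chr9:44579103-44583438, had 3270 bp under H3K27ac and met SOX9 and SOX6 peaks, and the last, chr16:65979066-65981451, had 901 bp and met neither. The most acetylated length under a single H3K9me3 peak was 8.837 kb, on chromosome 7 from 26890766 to 26900425, a peak of 9.66 kb with H3K4me1 and without H3K4me3 or SOX peaks. A peak on chromosome 4 from 29954087 to 29960752 followed with 6.604 kb, or 99.1% of its width, and one on chromosome 9 from 17750579 to 17756824 with all of its 6.246 kb. The fourth was the widest doubly marked peak, on chromosome 1 from 56915048 to 56930047, of which 5.352 kb of 15 kb (35.7%) lay under H3K27ac. The fifth lay on chromosome 7 from 53317777 to 53323070, with 5.007 kb.

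Doubly marked peaks lay unevenly along the genome. Over 2914 bins of 1 Mb, 1113 (38.2%) held at least 1, and 126 bins (4.32%) held 50% of them. The 20 bins with most held 762 doubly marked peaks (16.1%, 15.1% to 17.2%). The 20 fullest bins of the other lists held 9.19% of all H3K9me3 and 4.28% of all H3K27ac peaks, but these lists are longer, and a shorter list gathers more easily in few bins. The bins were chosen for their number of doubly marked peaks, so the rate in them, 38.2% of H3K9me3 peaks against 7.85% elsewhere, describes the choice. Their doubly marked peaks had H3K4me1 more often, at 76.0% (72.8% to 78.9%) against 63.4%, and H3K4me3 less often, at 9.19% (7.34% to 11.4%) against 16.0%.

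The bin with most was on chromosome 7 from 26000001 to 27000000, where 81 of 137 H3K9me3 peaks (59.1%) met H3K27ac. H3K27ac covered 22.0% of it, and of the 81 peaks 77 had H3K4me1 and 6 had H3K4me3. It also held 31 SOX9 and 33 SOX6 peaks. Neighbouring bins on chromosome 10, from 101000001 to 102000000 and from 100000001 to 101000000, held 50 and 47 doubly marked peaks. On chromosome 16 from 21000001 to 22000000 there were 47, with a median score of 662 and with few SOX peaks, 5 of SOX9 and 6 of SOX6. The bin on chromosome 9 from 44000001 to 45000000 held 44. All of the 20 bins were in the upper 10% of bins by number of H3K9me3 peaks, 16 by H3K27ac, 15 by H3K4me1, 14 by SOX6 and 12 by SOX9, but only 6 by H3K4me3. High ranks by H3K9me3 and H3K27ac follow from how the bins were chosen, and ranks by the other lists are not independent of that choice.

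Joined over gaps of at most 12492 bp, the doubly marked peaks formed 2532 groups, of which 1743 were single peaks. Groups of 5 or more numbered 180 and held 1469 peaks (31.1%). The largest held 66 in 180 kb on chromosome 7 from 26809072 to 26989469, with H3K27ac over 78.7%, H3K4me1 over 82.5%, H3K9me3 over 55.7% and H3K4me3 over 9.78% of its length, and with 22 SOX9 and 26 SOX6 peaks. The second, on chromosome 3 from 115930311 to 116006555, held 27 and no H3K4me3 peak, with H3K27ac over 74.6% and H3K9me3 over 41.8% of it. Next in size were chr9:44575323-44649686 with 26 peaks, chr10:101259251-101309266 with 23 and chr9:26058391-26123636 with 20. Some single H3K27ac peaks met many H3K9me3 peaks. The one with most, 7 in 15.15 kb, lay on chromosome 9 from 44609469 to 44624618, and had H3K9me3 over 39.8% of its length, 4 SOX9 and 5 SOX6 peaks. The H3K27ac peaks at chr3:116091192-116100865, chr7:25336858-25343952 and chr7:26819255-26841561 met 5 each, and that at chr1:55372163-55376530 met 4 and had no SOX peak.

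Autosomes with more input reads tended to have a higher rate. The 4 inputs hold a count of reads per chromosome, and from these the reads without a mismatch per Mb were set relative to the median chromosome and averaged over the 4 libraries. Chromosomes 7, 9, 11 and 16 stood above 1.5, at 1.91, 2.03, 1.63 and 2.05. On these 4 chromosomes 13.3% (12.7% to 13.9%) of H3K9me3 peaks met H3K27ac, and on the other 16 autosomes 7.42% (7.16% to 7.69%). They held 38.6% of doubly marked peaks, 26.2% of all H3K9me3 peaks and 21.6% of all H3K27ac peaks, and 15 of the 20 bins with most. By Mb the numbers were 4.06 and 1.23. Over the 20 autosomes the rate and the input had a Pearson r of 0.876 and a Spearman rho of 0.713, and over the 16 below 1.5 an r of 0.573 and a rho of 0.447. With X included, over 21 chromosomes, r was 0.752 and rho 0.575. These are descriptions over chromosomes that share all libraries, and are given without a test. On chromosome 11, 32.7% to 33.7% of aligned input reads had 2 or more mismatches, compared with 5.20% to 5.31% for the median chromosome.

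**Figure D5:**
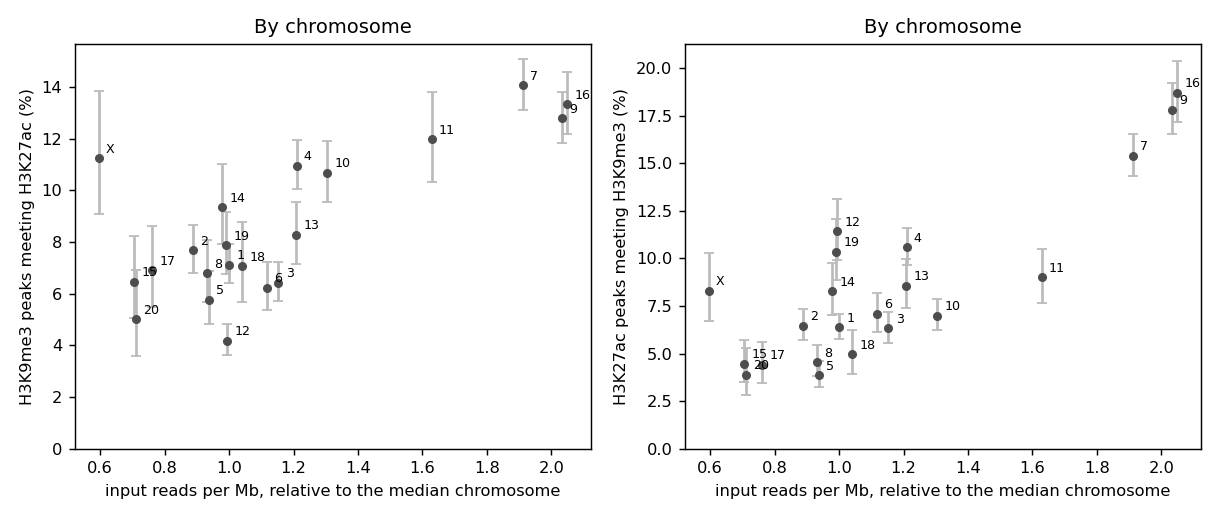
Share of H3K9me3 peaks that met H3K27ac (left) and of H3K27ac peaks that met H3K9me3 (right) for each of 21 chromosomes, against input reads per Mb relative to the median chromosome (mean of 4 inputs); points are chromosomes with their names and bars 95% Wilson intervals. Chromosomes 7, 9 and 16 lie to the upper right in both panels, while X, with an input of 0.595, stands above its neighbours on the left.

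Chromosomes with more input also had more H3K27ac, so the rate was read in bins of like acetylation. Where H3K27ac covered 8% or more of a bin, the rate was 26.4% (24.98% to 27.8%) on the 4 chromosomes and 19.4% (18.4% to 20.5%) on the other autosomes. In bins with 4% to below 8% it was 11.9% (10.9% to 13.0%) and 10.3% (9.72% to 10.98%), in bins with 2% to below 4% it was 8.91% (7.896% to 10.04%) and 5.78% (5.30% to 6.29%), and in bins with 1% to below 2% it was 6.96% (5.72% to 8.45%) and 2.87% (2.47% to 3.32%). In bins with less than 1% it was 2.31% (1.76% to 3.03%) and 1.91% (1.65% to 2.21%). The 4 chromosomes were above the others in every class, with intervals that overlap below 1% and from 4% to below 8%. Input reads were given per chromosome, so whether single bins carry extra DNA copies was not tested. Chromosome 12, which had the highest H3K9me3 coverage (6.59% of its length), had the lowest rate, 4.19% (3.62% to 4.84%), while 11.4% (9.91% to 13.1%) of its H3K27ac peaks met H3K9me3, against 8.85% on autosomes.

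The X chromosome differed from the autosomes in the kind of acetylated site that met H3K9me3. Its input was 0.595 and its rate 11.3% (9.10% to 13.8%), or 77 of 684 peaks, against 8.98% on autosomes. From the H3K27ac side X did not stand above them, with 8.31% (6.70% to 10.3%) of its peaks meeting H3K9me3 and 8.85% on autosomes. Of these 77, 64 carried H3K4me3 (83.1%, 73.2% to 89.9%) and 23 carried H3K4me1 (29.9%, 20.8% to 40.8%). On autosomes it was 13.8% (12.8% to 14.8%) and 66.0% (64.6% to 67.3%). X also has relatively more H3K4me3 among its H3K27ac peaks, but hosts exceeded these. H3K4me3 was present at 84.4% (74.7% to 90.9%) of X hosts and 49.3% (45.9% to 52.7%) of other X H3K27ac peaks. On autosomes the order was the opposite, with 20.7% (19.6% to 21.9%) and 40.2% (39.7% to 40.6%). The 77 peaks were spread over 48 bins of 1 Mb with at most 5 in 1 bin. Their median score was 96.9, their median share under H3K27ac was 96.1%, and only 3 met a SOX9 or SOX6 peak.

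At the limit of the rule, peaks inside and outside by 50 bp or less had H3K4me1 at like shares. The 62 doubly marked peaks with 1 to 50 bp under H3K27ac had a median width of 744.5 bp and a median score of 88.5, and 25 of them (40.3%, 29.0% to 52.7%) had H3K4me1. The 77 H3K9me3 peaks that missed an H3K27ac peak by 50 bp or less had medians of 650 bp and 72.7, and 30 of them (39.0%, 28.8% to 50.1%) had H3K4me1. With 51 to 100 bp under H3K27ac the share was higher, 37 of 64 (57.8%, 45.6% to 69.1%). Of peaks that missed by 51 to 100 bp it was 30 of 78 (38.5%, 28.4% to 49.6%), with intervals that overlap. Farther out, H3K4me1 was present at 18.7% of peaks over 100 and up to 1000 bp away, 6.53% of those up to 10 kb away and 1.963% of those beyond. The median H3K9me3 peak without H3K27ac lay 32667 bp from the nearest H3K27ac peak.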

How the data were processed

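Peak lists were deposited by the authors for the 6 antibodies, 1 per library, with peak names of MACS, and each peak has a score deposited by the authors. The submitters' processing notes name CASAVA 1.8 and rn5. The sources used here do not give the caller's version, its settings, the input used or the depth of the immunoprecipitated libraries. The authors deposited input reads as raw counts per chromosome (36873004 to 131858579 reads, 53.4% to 53.5% aligned).

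Starts were read as counted from 0 and are printed from 1. Overlap meant 1 bp in common. The last peak end stood for chromosome length. Bins took a peak by its centre. Width classes are 5 equal parts of each list, and weighted shares use the widths of the overlapping peaks. Overlap code was tested on simulated lists against a direct search. Regions named are the first 5 bins, peaks by shared length, groups and hosts, and the first 3 peaks by score. Members and lists were chosen with earlier results of these data known. No rn5 genome or annotation was used here, so no gene or sequence is given. Tools were Python 3.11.15, numpy 2.4.6, pandas 2.3.3 and scipy 1.17.1.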

Additional observations from a re-analysis of the deposited data

How the results depend on the processing

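Of 69 recomputed values over 12 results, 29 stayed within the interval of the reported value, 40 left it and 0 changed sign. A share cannot be negative, so a change of sign was possible only for the width-weighted differences. No paired analysis was possible because each antibody has 1 library, and leaving out a replicate was not possible for the same reason. Depth of the immunoprecipitated libraries was not used here, so a peak missing from a list may be a mark below its threshold.

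Requiring 50% of the narrower peak gave 8.14% for H3K9me3 peaks on H3K27ac, 7.98% for the reverse and 38.5% entirely under H3K27ac. Keeping the upper 50% of both lists by score, these were 5.47%, 5.08% and 42.8%, H3K4me1 was at 80.3% and H3K4me3 at 24.2% of doubly marked peaks, and the width-weighted H3K4me1 difference was 72.0 points. Both lists were cut in this subset, so each peak had fewer peaks to meet. There, 21.3% lay in the 20 bins with most, 12.9% of centres within 250 bp of an edge, the H3K4me3 difference of hosts was -23.2 points and H3K4me3 met 95% of 20 doubly marked X peaks (19).

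Without the 20 bins with most, the values were 7.85%, 7.72%, 63.4% with H3K4me1, 16.0% with H3K4me3, 59.4 points, and 5.24% of SOX9 centres in wide hosts under H3K9me3. Without chromosomes 7, 9, 11 and 16 they were 7.49%, 6.91%, 61.9%, 17.7% and 58.5 points, with 18.1% in the 20 bins with most, 32.1% near an edge and -14.8 points for H3K4me3 of hosts. On autosomes alone H3K4me3 was at 13.8%.

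Joining H3K9me3 peaks within 1 kb into 38028 regions gave 9.57% on H3K27ac, 24.1% entirely under it, 69.5% with H3K4me1, 17.7% with H3K4me3, 64.3 points, 12.8% in the 20 bins with most and 34.6% near an edge. Bins of 0.5 Mb gave 14.3%, of 2 Mb 19.1%, and bins shifted by 0.5 Mb 18.1%. An edge of 100 bp gave 8.07% and of 500 bp 68.7%, as the definition itself sets. The cause of the other shifts was not tested. The results on H3K4me3 of hosts, X and SOX centres were recomputed under alternatives chosen after seeing the data.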

Other observations

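The 1394 doubly marked peaks with neither H3K4me1 nor H3K4me3 lay on small acetylated peaks. Their hosts had a median width of 791.5 bp and a median H3K27ac score of 119.64, and the shared part made up a median of 53.8% of the joint length. Only 34 of them (2.44%, 1.75% to 3.39%) met a SOX9 or SOX6 peak. The 705 with H3K4me3 lay on hosts with medians of 1458 bp and 1225, and 137 of them (19.4%, 16.7% to 22.5%) met a SOX peak. The share of hosts with neither H3K4 mark was 26.98% (25.7% to 28.3%), against 10.7% (10.4% to 10.97%) of H3K27ac peaks without H3K9me3.

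Hosts with more H3K9me3 peaks were wider and held more SOX peaks. A SOX9 or SOX6 peak met 23.9% (22.6% to 25.2%) of hosts with 1 H3K9me3 peak, 46.8% (41.6% to 52.1%) of those with 2 and 79.5% (68.8% to 87.1%) of the 73 with 3 or more, whose median widths were 968, 2610 and 4923 bp. Width was not matched in these shares. Doubly marked peaks were less often alone in the H3K9me3 list than the others, with 17.6% (16.6% to 18.7%) and 27.8% (27.4% to 28.2%) more than 10 kb from the next H3K9me3 peak.

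The 705 doubly marked peaks with H3K4me3 lay in 437 bins of 1 Mb, and 132 of them (18.7%) lay in their 20 fullest bins. The bin with most, singled out after its values were seen, lay on chromosome 14 from 46000001 to 47000000. There 32 of 67 H3K9me3 peaks met H3K27ac, with a median score of 1443, and 22 of them had H3K4me3, while H3K27ac covered only 2.43% of the bin and SOX9 had 2 peaks in it.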
